A study of Arabidopsis thaliana with 3 samples.

Results

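The 121 genes described here were abundant in young Arabidopsis leaves at the start of an experiment and at least 8 times less abundant in both libraries taken 2 days later. They were chosen from the counts themselves: a locus was kept if it had 100 or more counts in the T0 library and if its T0 level was at least 8 times its level in the explant and at least 8 times its level in the control leaf. Levels are CPM, a gene's count divided by the sum of all gene counts of its library, times 1000000. Of 33602 loci listed, 15738 had 100 or more T0 counts and 121 of these passed, which is 0.769%. The filter on T0 counts favours genes that were high at T0, so a gene of low abundance at T0 could not enter however far its level differed.

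The study asked how detached leaves respond to wounding on the way to regeneration. All 3 libraries came from the first-pair rosette leaves of the ecotype Col-0, which the labels place at 12 days after sowing. No mutant allele, transgene or agent is named for any of them. Seedlings were grown on MS medium at 22 °C with 16 h of light and 8 h of dark, and detached leaves were kept on B5 medium without carbohydrate in the same photoperiod.

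The groups were the leaf explant at 2 days, labelled as 2 d wounding, the leaf labelled as 2 d control, called the 2-day control or control leaf here, and the T0 control, each with 1 library. The labels do not say whether the 2-day control leaf was still on the plant, whether the explant library holds the wound site or the rest of the leaf, how many leaves were pooled, or at what hour each was taken. Hour of sampling, leaf age and growth medium therefore cannot be told apart from group. With 1 library per group there is no spread between replicates and no test of any difference. The intervals given are exact Clopper-Pearson 95% intervals of a ratio of counts. They cover counting error only and no spread between plants. Copies of 1 molecule made by PCR cannot be told apart here, so the intervals may be too narrow even for counting error.

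As background, plant leaves run a circadian clock in which morning Myb factors, daytime pseudo-response regulators and evening genes repress or activate each other in turn, and a large share of leaf genes follow it. Light-harvesting chlorophyll-binding proteins are among the classic clock- and light-driven genes of the leaf. So are genes of the elongation pathway led by PIF4, which acts through auxin, and the CBF factors of the cold response, whose daily peak the clock sets.

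The libraries held 43099934 counts at T0, 45097732 in the control leaf and 46713257 in the explant, so 1 count was worth a similar CPM in each. With scaling by totals, the median of the 20109 loci with 30 or more counts over the 3 libraries was 0.32 higher on the log2 scale in the explant than at T0 and 0.31 higher in the control leaf. With TMM scaling these shifts were 0.03 and 0.07. The ratios of T0 over either 2-day library below are thus smaller than TMM scaling would give. All leaf marker lists were detected in the 3 libraries: the mesophyll and chloroplast list summed to 6532 CPM at T0, 5731 in the explant and 7904 in the control leaf, and the epidermis list to 776, 538 and 792. In the same order, the guard cell list summed to 137, 89.2 and 121 CPM, the phloem list to 872, 599.6 and 1288, and the trichome list to 2.48, 3.53 and 4.26. The phloem sum was thus lowest in the explant and highest in the control leaf, and its part in the results was not tested. The 7 xylem markers were lower in both 2-day libraries, at 24.3 CPM in the explant and 46.5 in the control leaf against 115 at T0, and their part in the results was not tested. Root hair markers reached at most 0.0464 CPM and shoot meristem markers at most 0.450, and 3 of the 5 seed markers had no count in any library. No marker gene was itself among the 121. In bulk samples, fewer cells of a type and less RNA per cell cannot be told apart.

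The 121 genes together took 20206 CPM at T0, which is 2.02% of all counts, against 791 CPM in the explant and 935 CPM in the control leaf. The 6 with the most counts, 5 of them antenna genes and the other ASN1, made up 53.0% of the T0 sum. The median member stood at 20.0 CPM at T0, 0.706 in the explant and 0.754 in the control leaf. Taken gene by gene, the median ratio was 31.4 for T0 over explant and 22.8 for T0 over 2-day control, and 40 members were at least 32 times higher at T0 than in both. These ratios chose the members and are given as a description only.

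Few members were absent at 2 days. DOG1 alone had no count in both 2-day libraries, 6 members had none in the explant and 4 had none in the control leaf. At the other end, LHCB3 still stood at 139 CPM in the explant and 207 in the control leaf, the highest 2-day levels of any member.

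Near the limit, the smaller of both ratios was 8.05 for AT1G15830, 8.07 for AT2G32150 and 8.11 for AT4G13800, which were just inside. It was 7.92 for SIGE, a plastid sigma factor, 7.92 for the auxin-synthesis gene YUC9, and 7.78 for AT2G17880, which were just outside. For 100 of the 121 members both counting intervals lay wholly beyond 8-fold, and for the other 21 at least 1 interval reached below it. Among loci with 100 or more T0 counts, 366 (2.33%) were at least 8 times higher at T0 than in the explant and 182 (1.16%) than in the control leaf. The 121 shared loci are 33.1% of the first list and 66.5% of the second. The 2 comparisons share the T0 library, so the sharing is not a result.

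**Figure D1:**
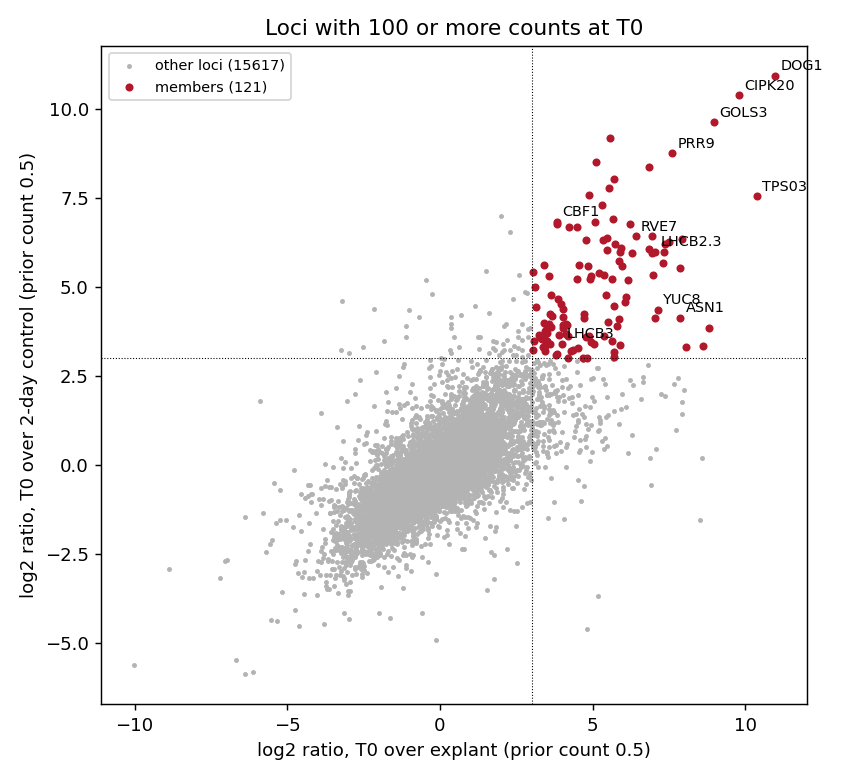
Log2 ratio of T0 over 2-day control against log2 ratio of T0 over explant, with a prior count of 0.5, for the 121 members (red) and the 15617 other loci with 100 or more T0 counts (grey), 1 library per group; dotted lines mark 8-fold. CIPK20, at 976 and 1571 times, and DOG1 lie far out at the upper right, and the members fill the corner beyond both lines because the rule put them there.

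CIPK20 and DOG1 are neighbours on chromosome 5, both on the minus strand, with no other listed locus between them. CIPK20, a protein kinase of the family that acts with calcineurin B-like calcium sensors, had 4504 counts at T0, 5 in the explant and 3 in the control leaf, or 105, 0.107 and 0.0665 CPM. The T0 level was 976 times the explant level, with an interval of 418 to 3008, and 1571 times the 2-day control level, with an interval of 537 to 7620. DOG1, known as the main regulator of seed dormancy, had 960 counts at T0 (22.3 CPM) and 0 in each 2-day library. With a floor of 3 counts per library in place of 0, its T0 level was 347 times the explant level and 335 times the 2-day control level. The lower interval bounds were 282 for the explant and 272 for the 2-day control.

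Of 26 CIPK genes, CIPK20 was the only one below T0 by 8-fold in both libraries, where 0.746% of all 20109 loci with 30 or more counts were. The 18 others with 100 or more T0 counts were CIPK1, CIPK2, CIPK3, CIPK4, CIPK5, CIPK6, CIPK7, CIPK8, CIPK9, CIPK10, CIPK12, CIPK14, CIPK15, CIPK17, CIPK21, CIPK23, CIPK24 and CIPK26. Their T0 levels were between 0.248 times (CIPK7) and 4.84 times (CIPK21) the explant level. Against the 2-day control the same genes ran from 0.503 times (CIPK10) to 2.87 times (CIPK21). The family median was -0.01 on the log2 scale in the explant and 0.12 in the control leaf relative to T0. Of the DOG1 relatives, DOGL4 had 21 counts at T0 and none at 2 days, below the limit for a member, and the other 3 listed had no count in any library. In the same T0 library the seed marker list summed to 0.186 CPM.

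The 4 members whose pair of ratios to T0 lay nearest to that of CIPK20, besides DOG1, were GOLS3, PRR9, TPS03 and AT3G55580, by the distance between the 2 log2 ratios over 3 libraries. GOLS3, a galactinol synthase that starts raffinose synthesis in the cold, had 1156 counts at T0, 2 in the explant and 1 in the control leaf. Its T0 level was 626 times the explant level (interval 173 to 5179) and 1210 times the 2-day control level (interval 217 to 47817). The very wide upper bounds come from counts of 1 and 2. TPS03, a terpene synthase that makes the leaf volatile ocimene, had 634 counts at T0, 0 in the explant and 3 in the control leaf. With the floor in place of 0, its T0 level was 229 times the explant level, and the lower interval bound was 186. The T0 level was 221 times the 2-day control level (interval 75.3 to 1075). AT3G55580, annotated as an RCC1-family protein, had 161 counts at T0, 1 in the explant and 0 in the control leaf.

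Several clock genes were members. Of 16 core clock genes, 6 were members, namely CCA1, PRR9, PRR7, PRR5, GI and FKF1. Of all 20109 loci with 30 or more counts, 0.746% were 8 times lower in both 2-day libraries. This list and the other gene lists were chosen with earlier results of these data known. A list count above that share is therefore a description only. No core gene was 8 times higher in both 2-day libraries than at T0. The list median was -2.22 on the log2 scale in the explant and -1.195 in the control leaf relative to T0, against 0.32 and 0.31 over all loci.

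The pseudo-response regulators repress the morning genes in sequence through the day. PRR9, the earliest of them, stood at 14.5 CPM at T0, 0.0642 in the explant (3 counts) and 0.0222 in the control leaf (1 count). PRR7 stood at 467 CPM at T0, 5.95 in the explant and 7.43 in the control leaf. PRR5 stood at 423 CPM at T0, 18.0 in the explant and 8.58 in the control leaf. All 3 were thus far below T0 at 2 days, by 227 and 656 times for PRR9 (intervals 77.2 to 1101 and 117 to 25954), by 78.5 and 62.9 times for PRR7, and by 23.4 and 49.3 times for PRR5. Other members of the family were nearer to T0. The related PRR3 stood at 28.1 CPM at T0, 23.1 in the explant and 38.6 in the control leaf, and TOC1, the evening member of the family, at 318, 103 and 133.

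GI, a large protein that stabilises clock F-box proteins, stood at 368 CPM at T0, 9.03 in the explant and 4.59 in the control leaf. Its partner FKF1, a blue-light F-box receptor of the flowering pathway, stood at 221 CPM at T0, 19.4 in the explant and 19.6 in the control leaf. ZTL, the relative of FKF1 that controls period, was 66.5, 56.3 and 70.1 CPM, so the 8-fold limit separates FKF1 from ZTL. Of the evening complex, LUX was 7.03 and 5.54 times higher at T0, while ELF3 was 1.197 and 0.6085 times and ELF4 1.35 and 1.21 times the 2-day levels.

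The morning Myb genes did not move as a pair. CCA1 stood at 28.6 CPM at T0, 0.985 in the explant and 0.577 in the control leaf, which is 29.1 and 49.6 times higher at T0. LHY, its close relative, had 1.81 CPM at T0, 6.40 in the explant and 3.21 in the control leaf, the opposite order. RVE7, a Myb-like factor of the same family, stood at 35.5 CPM at T0, 0.407 in the explant and 0.399 in the control leaf, a ratio of 87.3 and 88.9. RVE2, another of them, ran the other way, from 5.64 CPM at T0 to 139 in the explant and 129 in the control leaf. For RVE7, 53.8% of the 100-base stretches of its transcript match another locus at 95% identity, so its counts are uncertain, and PRR9 has such stretches over 26.8%.

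The LNK genes, clock- and light-regulated partners of the RVE factors, were members as a complete set of 4. LNK1 stood at 62.4 CPM at T0, 1.24 in the explant and 1.64 in the control leaf. LNK2 stood at 215 CPM at T0, 5.84 in the explant and 5.08 in the control leaf. LNK3 stood at 14.9 CPM at T0, 0.792 in the explant and 0.133 in the control leaf, and LNK4 at 56.9, 0.300 and 0.732. Each of the 4 was at least 18.9 times higher at T0 than in either 2-day library. With RVE7 they made 5 members among 14 clock-output genes, where 0.746% of all loci were 8 times lower in both. In that list 1 gene, RVE2, was 8 times higher in both 2-day libraries, a direction that 3.05% of all loci shared.

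The upstream bases of PRR9 and RVE7 are shown here because they hold letters that clock factors are known to bind. Each line runs 5′ to 3′ over the 250 bases before the annotated start, in RefSeq's TAIR10.1, with the G-box CACGTG and the evening element AAATATCT, or AGATATTT on the other strand, in capitals.
PRR9 (chr2:19232357-19232606, strand +): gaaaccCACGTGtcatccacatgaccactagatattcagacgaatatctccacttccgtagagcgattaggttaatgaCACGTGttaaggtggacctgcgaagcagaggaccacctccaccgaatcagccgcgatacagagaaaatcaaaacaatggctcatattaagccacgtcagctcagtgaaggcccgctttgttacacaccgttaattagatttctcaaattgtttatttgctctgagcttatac
RVE7 (chr1:6308244-6308493, strand -): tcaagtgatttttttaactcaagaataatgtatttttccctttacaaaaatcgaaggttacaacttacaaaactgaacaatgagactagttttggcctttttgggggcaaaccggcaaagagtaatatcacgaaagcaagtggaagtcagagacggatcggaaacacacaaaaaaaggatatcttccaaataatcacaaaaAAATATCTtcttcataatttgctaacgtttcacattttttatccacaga
In PRR9 the G-boxes start 244 and 172 bases before the transcript start, and an evening element lies within the transcript, from 26 bases after the start. In RVE7 the evening element starts 49 bases before the start. These are matches of letters and no evidence of binding.

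B-box zinc-finger factors, many of which act in light signalling, gave 5 members among 21 measured, where 0.746% of all loci were 8 times lower in both. BBX6, also called COL5, stood at 461 CPM at T0, 20.3 in the explant and 12.3 in the control leaf. BBX24, a repressor of light responses, stood at 185 CPM at T0, 14.9 in the explant and 12.6 in the control leaf. BBX28 stood at 88.1 CPM at T0, 1.97 in the explant and 1.04 in the control leaf, and BBX16 at 40.6, 0.664 and 0.577. These 4 had 2-day levels close to each other beside their distance from T0. BBX29 was the exception, at 8.21 CPM at T0, 0.771 in the explant and 0.155 in the control leaf. The family as a whole was less far from T0, with a median of -0.93 on the log2 scale in the explant and -0.80 in the control leaf.

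**Figure D2:**
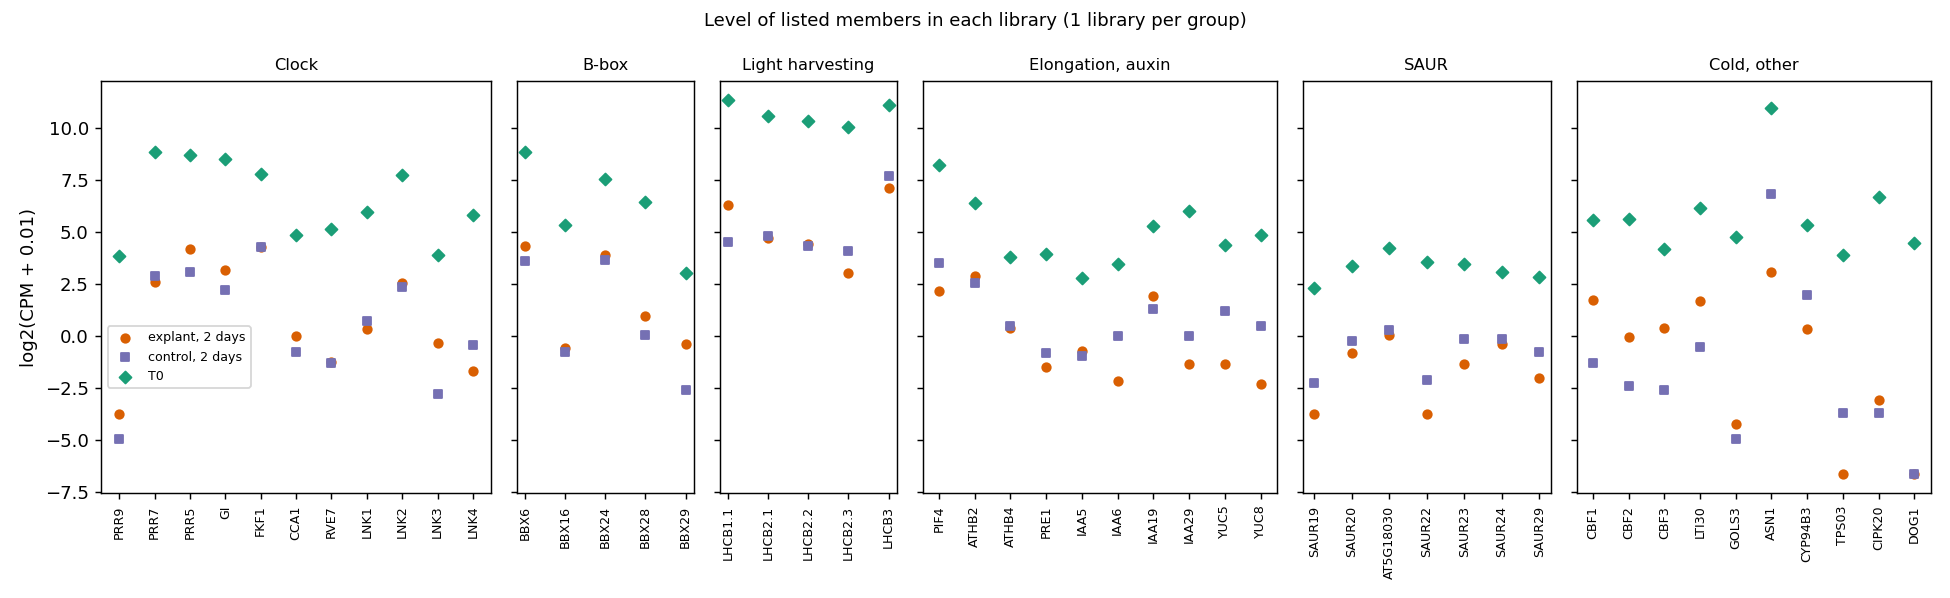
Level of listed members on the scale log2(CPM + 0.01) in the explant (circles), the 2-day control (squares) and T0 (diamonds), 1 library each, by gene group. The T0 diamonds lie above both 2-day points for every gene shown, and the 2-day points are wide apart for ASN1, the CBF genes and LHCB1.1 and close for PRR7, RVE7 and LHCB2.2.

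The most abundant members were antenna proteins of photosystem II, which bind chlorophyll a and b and pass on captured light. Of 23 light-harvesting genes, 5 were members, where 0.746% of the 20109 loci were 8 times lower in both: LHCB1.1, LHCB2.1, LHCB2.2, LHCB2.3 and LHCB3. A further 6 were 8 times lower in the explant alone, where 1.60% of the 20109 loci were, and none in the control leaf alone, where 1.33% were. The list summed to 41256 CPM at T0, 6972 in the explant and 10859 in the control leaf.

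LHCB1.1 stood at 2623 CPM at T0, 78.4 in the explant and 22.8 in the control leaf. LHCB3 stood at 2196 CPM at T0, 139 in the explant and 207 in the control leaf. Per kb of exon, LHCB1.1 had the highest T0 level of all members at 1996 CPM, followed by LHCB3 at 1768, LHCB2.2 at 1119 and LHCB2.1 at 1080. The LHCB2 genes, which encode the antenna proteins that move between photosystems, were all members. LHCB2.1 stood at 1518 CPM at T0, 26.0 in the explant and 28.3 in the control leaf. LHCB2.2 stood at 1279, 21.6 and 20.1 CPM in the same order, and LHCB2.3 at 1074, 8.07 and 16.8. The T0 ratios of the LHCB2 genes thus lay between 53.7 and 133 in either comparison.

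Of the other LHCB1 genes, none was a member. LHCB1.3 stood at 4454 CPM at T0, 1725 in the explant and 2193 in the control leaf. LHCB1.2 was 12.1 times lower in the explant and 7.65 times lower in the control leaf, just outside the limit. The explant was the lower of the 2-day libraries for these genes. LHCB1.4 was 68.8 times lower in the explant and 3.11 times lower in the control leaf. LHCB1.1 shares near-identical stretches with LHCB1.2, LHCB1.3 and LHCB1.5 over 56.0% of its windows. LHCB2.1 and LHCB2.2 share them with each other, over 51.9% and 57.1%. How reads that fit several copies were treated is not given in the sources used here, so the split within each of these groups is uncertain. LHCB2.3 has no such copy, and 40.6% of its exon lies in a neighbouring gene model.

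Some genes of pigment synthesis and the plastid were members too, and are named here after their values were seen. ABA1, zeaxanthin epoxidase of the xanthophyll cycle, stood at 611 CPM at T0, 71.8 in the explant and 54.5 in the control leaf. CH1, the oxygenase that makes chlorophyll b, stood at 278 CPM at T0, 33.6 in the explant and 29.5 in the control leaf. In both, the 2-day libraries were nearly level with each other. PORA, a light-dependent protochlorophyllide reductase, stood at 14.4 CPM at T0, 0.107 in the explant and 0.155 in the control leaf. PHT4;1, a thylakoid phosphate transporter, stood at 215, 20.6 and 18.3 CPM in the same order. PORA had the smallest share of its T0 level left at 2 days of these 4. The markers of mesophyll chloroplasts, which include the small Rubisco subunits, had no member, with a list median of -0.19 in the explant and 0.15 in the control leaf on the log2 scale relative to T0.

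PIF4, a basic helix-loop-helix factor that drives elongation in shade and warmth, stood at 303 CPM at T0, 4.43 in the explant and 11.4 in the control leaf. Its T0 level was 68.3 times the explant level and 26.6 times the 2-day control level. PIF5, its close relative, was 7.44 times lower in the explant and 12.2 times lower in the control leaf, outside the limit by the explant alone. PIF1 was 1.84 and 1.02 times higher at T0, and PIF3 was higher at 2 days, at 0.481 and 0.726 times.

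The shade list, with 15 genes measured, held 4 members, where 0.746% of all loci were 8 times lower in both. In the explant alone, 5 further genes were 8 times lower, against 1.60% of all loci. ATHB2, a homeodomain factor induced by shade, stood at 84.4 CPM at T0, 7.34 in the explant and 5.79 in the control leaf. ATHB4, of the same class, stood at 14.0 CPM at T0, 1.28 in the explant and 1.37 in the control leaf. PRE1, an atypical helix-loop-helix protein that promotes cell elongation, stood at 15.4 CPM at T0, 0.343 in the explant and 0.554 in the control leaf. Unlike these, PAR1, an inhibitor of the same pathway, was 261 times lower in the explant but 4.29 times lower in the control leaf.

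Auxin genes gave 6 members among 16 measured: the biosynthesis genes YUC5 and YUC8 and the Aux/IAA repressors IAA5, IAA6, IAA19 and IAA29. With YUC3, which had too few T0 counts, 7 were 8 times lower in both 2-day libraries, where 0.746% of all loci were. YUC8, a flavin monooxygenase of the last step of auxin synthesis, stood at 28.6 CPM at T0, 0.193 in the explant and 1.37 in the control leaf. YUC5 stood at 20.6 CPM at T0, 0.385 in the explant and 2.28 in the control leaf. Both synthesis genes were lower in the explant than in the control leaf. IAA29, an early auxin-induced gene, stood at 64.1 CPM at T0, 0.385 in the explant and 0.998 in the control leaf. IAA19 stood at 39.5 CPM at T0 and was nearer to it in the explant than IAA29, at 3.75, with 2.48 in the control leaf. The Aux/IAA members thus differed in the order of the 2-day libraries. YUC3, with 37 T0 counts and none at 2 days, was too low at T0 to be a member. The GH3 genes, which conjugate auxin to amino acids, took another course: GH3.3 stood at 22.5 CPM at T0, 177 in the explant and 2.53 in the control leaf, and GH3.2 at 10.6, 98.1 and 0.421.

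Small auxin up RNA genes promote cell expansion. Of 58 measured, 7 were members. Once genes with fewer T0 counts are included, 11 were 8 times lower in both 2-day libraries, where 0.746% of all loci were. In the explant alone 10 were 8 times lower, against 1.60% of all loci, and 4 were 8 times higher in both, against 3.05%. SAUR19, SAUR20, AT5G18030, which RefSeq lists as SAUR21 among its synonyms, SAUR22, SAUR23 and SAUR24 all lie within a stretch of 11 listed loci on chromosome 5, and SAUR29 lies on chromosome 3. SAUR22 had 512 counts at T0, 3 in the explant and 10 in the control leaf. SAUR20 had 451 counts at T0, 26 in the explant and 38 in the control leaf, and SAUR23 had 469, 18 and 40. In each the explant had the fewest counts. The explant-to-control interval spanned 1 for SAUR22 (0.0512 to 1.12) and SAUR20 (0.385 to 1.12) and lay below 1 for SAUR23 (0.234 to 0.775). AT5G18030 had 798 counts at T0, 48 in the explant and 54 in the control leaf. The T0 ratios of these 4 ran from 12.3 to 185. The genes of the stretch share near-identical 100-base windows among themselves, 63.6% of those of SAUR19, 54.5% of SAUR24, 13.3% of SAUR23 and of AT5G18030, 12.5% of SAUR20 and 7.69% of SAUR22. The counts of SAUR19 and SAUR24 are the most uncertain for this reason.

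The CBF genes, transcription factors that switch on the cold response, are 3 neighbours on chromosome 4 and all were members. CBF1 stood at 47.1 CPM at T0, 3.32 in the explant and 0.399 in the control leaf. CBF2 stood at 50.05 CPM at T0, 0.963 in the explant and 0.177 in the control leaf. CBF3 stood at 18.3 CPM at T0, 1.28 in the explant and 0.155 in the control leaf. Each gene was thus highest at T0, lower in the explant and lowest in the control leaf. The T0 level was 14.2 times the explant level for CBF1, 52.0 times for CBF2 and 14.3 times for CBF3, and 118, 282 and 118 times the 2-day control level.

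The bases before the start of each CBF gene are shown because each holds an evening element, again in capitals with any G-box, 5′ to 3′ from TAIR10.1.
CBF1 (chr4:13022997-13023246, strand -): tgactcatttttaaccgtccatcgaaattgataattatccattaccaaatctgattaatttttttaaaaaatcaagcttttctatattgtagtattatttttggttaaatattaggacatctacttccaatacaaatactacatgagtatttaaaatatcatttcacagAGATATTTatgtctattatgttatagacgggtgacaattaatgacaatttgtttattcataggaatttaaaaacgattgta
CBF2 (chr4:13016236-13016485, strand -): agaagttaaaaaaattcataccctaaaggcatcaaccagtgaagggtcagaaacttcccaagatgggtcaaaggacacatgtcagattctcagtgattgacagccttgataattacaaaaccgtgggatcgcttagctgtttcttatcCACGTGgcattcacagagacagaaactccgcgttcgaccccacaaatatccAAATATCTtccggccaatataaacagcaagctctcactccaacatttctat
CBF3 (chr4:13019401-13019650, strand -): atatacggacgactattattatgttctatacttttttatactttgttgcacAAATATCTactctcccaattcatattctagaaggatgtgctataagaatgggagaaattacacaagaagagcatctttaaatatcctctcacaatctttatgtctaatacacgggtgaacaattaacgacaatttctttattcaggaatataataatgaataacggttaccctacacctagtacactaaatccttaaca
The evening element starts 81 bases before the transcript start in CBF1, 51 bases in CBF2 and 199 bases in CBF3, and in CBF1 it is on the reverse strand. CBF2 also has a G-box 102 bases before its start.

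LTI30, a dehydrin that the CBF factors are known to activate, stood at 72.0 CPM at T0, 3.19 in the explant and 0.687 in the control leaf. Of 14 cold and dehydration genes measured, 4 were members, where 0.746% of all loci were 8 times lower in both. In the explant alone 1 was 8 times lower, against 1.60% of all loci, and in the control leaf alone 4 were, against 1.33%. RD29A stood at 1163 CPM at T0, 194 in the explant and 28.6 in the control leaf, and COR15A at 261, 36.8 and 118. Among the galactinol synthases, GOLS3 was a member, while GOLS1 stood at 4.32 CPM at T0, 1.52 in the explant and 0.887 in the control leaf. GOLS2 was higher in the explant than at T0, at 1.25 CPM at T0, 2.80 in the explant and 0.444 in the control leaf.

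Some other factors of the AP2/ERF family to which the CBF genes belong were members as well. They were grouped after their values were seen, and no list of the family was counted. DDF1, a close CBF relative, had 791 counts at T0, 11 in the explant and 7 in the control leaf, and its paralog DDF2 had 285, 6 and 0. Both were nearly uncounted at 2 days. DREB2C, of the drought branch, stood at 11.9 CPM at T0, 1.35 in the explant and 0.532 in the control leaf. ERF6, a stress-responsive factor, stood at 120, 12.7 and 9.58 CPM. ORA47, a jasmonate-responsive factor, stood at 28.0, 2.31 and 2.62 CPM, and RRTF1 at 18.3, 1.11 and 1.26, with 64.0% of its exon in other gene models. Unlike the CBF genes, ERF6, ORA47 and RRTF1 were within 1.5 times of each other in both 2-day libraries.

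ASN1, an asparagine synthetase known to be induced in the dark and repressed by sugar, stood at 2011 CPM at T0, 8.56 in the explant and 114 in the control leaf. The explant was thus far below the control leaf, and both were far below T0. ASN1 was the only member among 19 measured starvation genes, 7 of which were 8 times lower in the explant alone, against 1.60% of all loci. ERD7, a dehydration-induced gene, stood at 840 CPM at T0, 77.3 in the explant and 62.0 in the control leaf. CYP94B3, which inactivates the hormone jasmonoyl-isoleucine, stood at 40.9 CPM at T0, 1.24 in the explant and 3.88 in the control leaf. It was the only member among 29 measured jasmonate genes and among 135 measured P450 genes, beside 0.746% of all loci that were 8 times lower in both, so the P450 count is at the background. THI2.2, a thionin, stood at 27.9 CPM at T0, 0.492 in the explant and 1.84 in the control leaf. CYP94B3 and THI2.2 were both lower in the explant than in the control leaf. MYBL2, a repressor of anthocyanin synthesis, stood at 151, 5.74 and 7.96 CPM.

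Other lists had no member. None of 55 measured WRKY genes, 72 MYB genes, 51 UDP-glycosyltransferase genes, 22 expansin genes, 26 XTH genes, 13 cytokinin genes, 12 SWEET genes and 5 genes of a glutaredoxin cluster was 8 times lower in both 2-day libraries. The MYB list did not hold MYBL2, CCA1 or RVE7, which were members. With 0.746% of all loci 8 times lower in both, lists of these sizes would hold none or few at the background share. The absence of members on these lists is therefore not a result about the families. Of the same lists, 10 WRKY, 14 MYB and 8 UDP-glycosyltransferase genes were 8 times higher in both, where 3.05% of all loci were. So were 2 XTH genes, 1 expansin gene and 1 SWEET gene, and no gene of the cytokinin list or the glutaredoxin cluster.

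Of the 121 members, 48 were on one of the lists and 73 on none, 69 had a symbol in RefSeq and 52 did not. All but AT1G69140, a transcribed pseudogene, are protein-coding. Among those on no list, AT5G35970, annotated as a P-loop nucleoside triphosphate hydrolase, stood at 701 CPM at T0, 45.3 in the explant and 30.3 in the control leaf. AT1G02660, an alpha/beta-hydrolase, stood at 413, 6.87 and 39.5 CPM, and AT1G73480, of the same superfamily, at 303, 7.60 and 1.88. These 2 hydrolase genes thus had opposite orders in the 2-day libraries. AT3G46370, a leucine-rich repeat kinase, had 3014 counts at T0, 26 in the explant and 50 in the control leaf. The remaining members on no list had T0 levels from 2.51 CPM upward.

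Whether explant and 2-day control differed among the members is a comparison that the rule did not use, although it capped both levels. With 30 or more counts over both 2-day libraries, 97 members could be compared and 24 could not. A member was called where its counting interval lay wholly beyond 2-fold. By this rule 11 members (11.3%) were higher in the explant, where 10.3% of 19629 loci were, and 16 (16.5%) were higher in the control leaf, where 6.47% were. The share higher in the explant was near the background and the share higher in the control leaf was above it, with no test of either. The median explant-to-control ratio was 0.919 over these members and 1.02 over all loci, and 70 members were called in neither direction. These calls rest on 1 library a group and compare those libraries, not the conditions.

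Higher in the explant were all 4 cold-list members. The explant level was 8.31 times the control level for CBF1 (interval 5.09 to 14.4), 5.43 times for CBF2 (2.53 to 13.3), 8.28 times for CBF3 (3.78 to 21.5) and 4.64 times for LTI30 (3.13 to 7.07). BBX29 was 4.96 times higher (2.18 to 13.2), LNK3 5.95 times (2.49 to 17.3) and LHCB1.1 3.44 times (3.21 to 3.69). The LHCB1 genes with which LHCB1.1 shares near-identical stretches had ratios below 1, at 0.633 for LHCB1.2, 0.787 for LHCB1.3 and 0.188 for LHCB1.5, and how reads were split among these copies is uncertain. The ratio was 0.919 for LHCB2.1, 1.08 for LHCB2.2 and 0.481 for LHCB2.3. The other 4 were AT4G33467, at 11.05 times (5.60 to 24.8), AT1G73480, AT1G70640 and AT2G32200, none of which has a symbol.

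Higher in the control leaf were ASN1, YUC8, YUC5, IAA6, PIF4, CYP94B3, THI2.2 and UMAMIT33, a gene of an amino acid transporter family, among 16. The control level of ASN1 was 13.3 times the explant level (interval 12.0 to 14.8), from 5146 counts against 400. It was 7.14 times for YUC8 (3.53 to 16.3), 5.93 times for YUC5 (3.57 to 10.4) and 4.66 times for IAA6 (2.32 to 10.4). Of the 6 auxin members, 3 were higher in the control leaf and none in the explant. AT3G43850, an uncharacterized gene, had 90 counts in the control leaf and 3 in the explant. Below the limit of 30 counts, and so not among the 16, RTFL21, of a family of small peptides, had 15 counts in the control leaf and 0 in the explant, and AT3G15440 had 19 and 0.

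The clock core members were called in neither direction, at explant-to-control ratios from 0.801 for PRR7 to 2.103 for PRR5 among the 5 with enough counts. GI was 1.97 times the control level (interval 1.66 to 2.34), CCA1 1.71 times (1.03 to 2.88) and FKF1 0.988 times (0.900 to 1.09). A ratio whose interval is not wholly beyond 2-fold does not show that the libraries were alike.

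**Figure D3:**
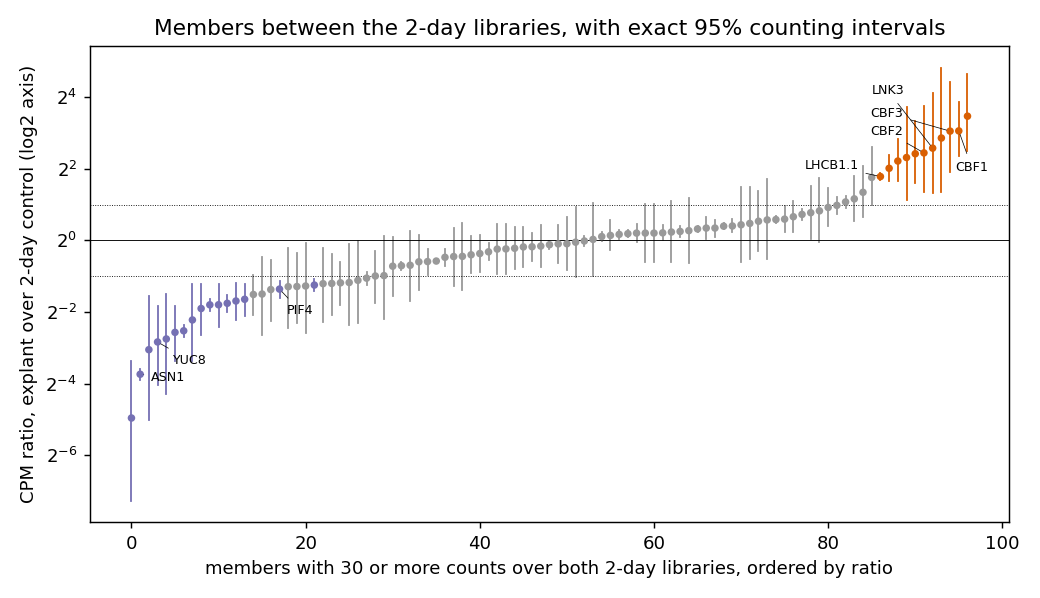
Explant level over 2-day control level on a log2 axis for the 97 members with 30 or more counts over both libraries, ordered by ratio, with exact 95% counting intervals as bars; dotted lines mark 2-fold. The 11 members called higher in the explant are at the right and the 16 called higher in the control leaf at the left, with 70 between or across the lines.

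Members lay on all 5 chromosomes, 36 on chromosome 1, 17 on 2, 19 on 3, 18 on 4 and 31 on 5. Next to another member, with no listed locus between, lay 13 members (10.7%), while 126 of the 15617 other loci with 100 or more T0 counts (0.807%) lay next to one. The runs were CBF2, CBF3 and CBF1, SAUR20 and AT5G18030, SAUR22 and SAUR23, CIPK20 and DOG1, AT3G21320 and AT3G21330, and AT1G15830 with AT1G15825. In the last pair 72.2% of the exon of AT1G15825 lies in AT1G15830, so these counts may not be separate, and the CBF and SAUR runs are tandem relatives. CIPK20 and DOG1 belong to different families, and no near-identical stretch was found for either.

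The letters of 10 short motifs were searched on both strands from 250 bases before to 50 after the start of each member's transcript. The evening element AAATATCT or AGATATTT was in 19 of 121 windows (15.7%), against 6.23% of 15605 other loci with 100 or more T0 counts and 5.29% of all 32834 windows. The G-box CACGTG was in 20 (16.5%), against 9.05% and 6.90%. The E-box CACATG or CATGTG, which PIF factors are known to bind, was in 28 (23.1%), against 12.4% and 12.7%, and the I-box GATAAG or CTTATC in 27 (22.3%), against 15.2% and 14.97%. No motif searched contains the letters of another.

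Other motifs were nearer to the share in other loci. The CCA1 site AAAAATCT or AGATTTTT was in 9.09% of members and 8.48% of other loci, and the cold-response core CCGAC or GTCGG in 19.8% and 16.9%. TGTCTC or GAGACA, the auxin response element, was in 16.5% and 13.3%, and ACTCAT or ATGAGT in 16.5% and 13.8%. The W-box TTGACC or GGTCAA was in 9.92% and 14.2%, and the telo box AAACCCTA or TAGGGTTT in 3.31% and 5.55%. The windows of CIPK20 and DOG1 held neither an evening element nor a G-box, which says only that these letters are not in these windows. Evening elements were in the windows of PRR9, PRR5, FKF1, RVE7, BBX24, LTI30, PORA, TPS03, DREB2C, MYBL2 and the 3 CBF genes, and in 6 members without a symbol. G-boxes were in those of PRR9, PRR7, CCA1, LNK1, LNK2, LNK3, ASN1, LHCB2.3, CH1, GOLS3, IAA19, RRTF1 and CBF2, and in 7 without a symbol.

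**Figure D4:**
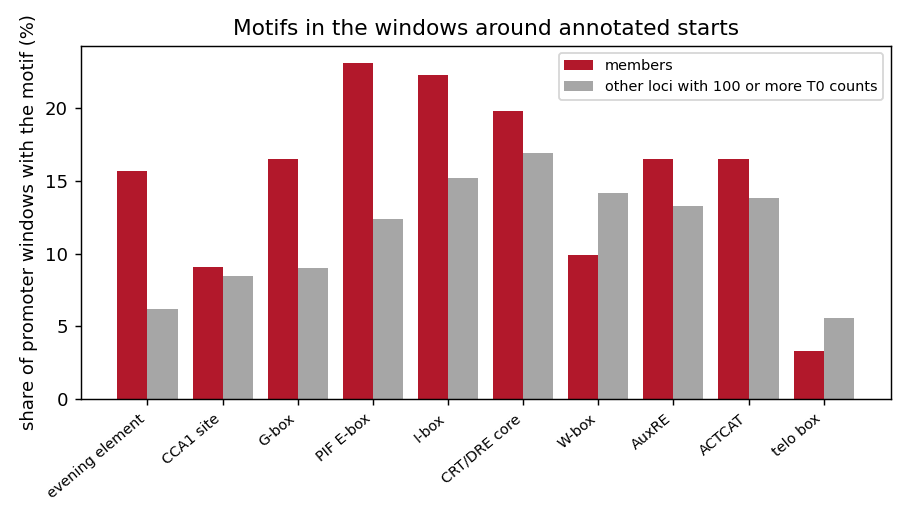
Percent of windows from 250 bases before to 50 after the transcript start that hold each of 10 motifs, for the 121 members and for other loci with 100 or more T0 counts. The evening element stands at 15.7% against 6.23% and the G-box at 16.5% against 9.05%, while the CCA1 site stands at 9.09% against 8.48%.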

How the data were processed

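RNA from the first-pair rosette leaves of Arabidopsis was sequenced in 3 libraries, with 1 library per group. The deposited files hold raw counts of reads per locus, which the authors left unscaled. FastQC, HTSeq, DESeq and the build TAIR10 are named, per the submitters' processing notes. Aligner, annotation and strand setting: not given in the sources used here. Whether reads of overlapping genes on opposite strands were kept apart is therefore not known.

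Lines that name no gene were left out of totals: ambiguous reads were 2.12% to 2.18% and reads in no gene 0.677% to 0.763% of each library. Levels are CPM on the sum of gene counts. Log2 ratios used a prior count of 0.5. With no replicates, no model test was run. Exact Clopper-Pearson intervals came from the binomial split of a locus's counts between libraries (scipy 1.17.1), after a check on simulated data. The floor was 3 counts per library, or 0.0642 to 0.0696 CPM. TMM factors from edgeR 4.0.16 and DESeq2 1.42.0 size factors under R 4.3.3 served as alternatives.

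Symbols, neighbours and sequences came from RefSeq's TAIR10.1 by locus tag: 32835 of 33602 loci and all 121 members matched. Coordinates are those of TAIR10.1. Copies were sought with blastn 2.17.0 in 100-base windows taken every 50 bases, at 95% identity over at least 95 bases. By this measure 17 members had a copy and 5 had over 50% of their exon in another gene model.

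The members and the 23 gene lists and 9 marker lists were chosen with earlier results of these data known. Genes named by rule were CIPK20 and DOG1, the 10 symbol-bearing members with the most T0 counts, the 10 with the farthest nearer bound, the 5 highest and 5 lowest in explant over control, up to 4 members per list, all CIPK and DOG genes with 100 T0 counts, the 3 loci on each side of the limit and the 5 nearest to CIPK20. Other names, and the promoters shown, were picked with values in view.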

Additional observations from a re-analysis of the deposited data

How the results depend on the processing

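The number of members was 121 as reported. It was 145 with TMM scaling and 151 with DESeq2 size factors, each with all 121 kept, and 149 and 100 with minimums of 30 and 300 T0 counts. It was 295 at 4-fold and 61 at 16-fold, 100 with both intervals beyond 8-fold and 120 after thinning to the smallest library. Members on any list numbered 79 at 4-fold and 53 with TMM scaling against 48. At 4-fold, the share of loci with 100 T0 counts that passed was 1.874% for both libraries, 5.032% for the explant and 2.815% for the 2-day control. Between the 2-day libraries, the 11 members higher in the explant became 4 with 150 counts required, 2 at 4-fold and 7 with a wider counting interval, and the 16 higher in the 2-day control became 8, 3 and 7. The other alternatives for these counts stayed within 1.5 times. The smaller counts follow from stricter limits.

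No paired analysis was possible because each group has 1 library and the labels give no replicate numbers. Leaving out a library would leave a group empty. A depth of 43099934 to 46713257 counts limits what can be said of members with few 2-day counts: a count of 0 allows up to 0.0642 CPM in the explant and 0.0665 CPM in the 2-day control.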
